A study of Mus musculus with 6 samples.

Results

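The replication-dependent histone genes encode the linker histone H1 and the core histones H2A, H2B, H3 and H4 that package newly made DNA. They were taken here as all genes of the deposited table whose GENCODE M21 symbol begins with Hist1h, Hist2h, Hist3h or Hist4h and whose annotated type is protein coding. This gave 49 of the 17312 genes in the table, with 6 genes of H1, 13 of H2A, 13 of H2B, 6 of H3 and 11 of H4. The annotation holds 67 such genes, and the other 18 were not analysed here. Of the 49 genes, 48 reached an FPKM (fragments scaled to transcript length and library size) of at least 1 in at least 3 tumors and were tested. The exception was Hist2h3c1, an H3 gene with 0.305 to 0.625 FPKM, which is named here for that reason.

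The tumors came from mice with a Cre-lox inducible allele of 1 of 2 fusion oncogenes of synovial sarcoma, SS18-SSX1 (3 tumors) or SS18-SSX2 (3 tumors). In both genotypes the allele was switched on by TATCre, a cell-entering Cre recombinase protein, injected into the soft tissue before the tibia. The tumors arose in the leg, received no treatment and were collected about 1 year after the injection. No uninjected tissue was analysed here, so each comparison is between the fusion forms and not between tumor and normal cells.

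Histone messages of this kind are made when DNA is replicated and are destroyed when replication ends. They carry no poly(A) tail in cycling cells. Their 3′ end is formed instead at a short stem-loop, which is bound by the protein SLBP and cut with the help of the U7 small nuclear ribonucleoprotein. The genes lie in clusters, where many H2A and H2B genes share a promoter region in back-to-back pairs, and a set of non-clustered replacement histones supplies chromatin outside of S phase. The libraries were made with Ribo-Zero, which removes ribosomal RNA and does not select for poly(A), so transcripts that end at the stem-loop could be captured.

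The stem-loop is the sequence that sets these genes apart from other genes of the table, and 7 of them are shown because they cover each of the 7 forms found. The transcript sequences are those of GENCODE M21 on GRCm38, capitals mark the 16 bases of stem and loop, and the 5 bases on either side are in lower case. The first 5 belong to members described below, and Hist1h4j and Hist1h4a were added for their sequence.
Hist1h1e: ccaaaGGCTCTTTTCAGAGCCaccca
Hist1h3e: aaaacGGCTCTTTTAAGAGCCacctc
Hist2h2ac: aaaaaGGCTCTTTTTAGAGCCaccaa
Hist1h4d: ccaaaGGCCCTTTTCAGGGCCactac
Hist1h4i: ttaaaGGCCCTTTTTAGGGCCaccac
Hist1h4j: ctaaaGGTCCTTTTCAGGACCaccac
Hist1h4a: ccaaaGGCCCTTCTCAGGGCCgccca

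An element with 6 paired bases and a loop of 4 was found in the annotated transcripts of 34 of the 49 histone genes (69.4%). The same search pattern matched 15 of the 14802 other protein-coding genes of the table (0.101%), in which pairing was not checked. All 10 H4 genes that held the element had a stem that began GGCCC or GGTCC. In all 24 genes of the other histone classes that held it, the stem began GGCTC. The commonest form, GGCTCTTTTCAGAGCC, stood in 18 genes, among them 6 of H2A, 6 of H2B, 3 of H1 and 3 of H3. In 15 genes the element ended within 100 bases of the annotated transcript end, as a message cut at the stem-loop would. In 8 genes the annotation went on for more than 1000 bases past it, up to 4884 bases in Hist1h1d, so that longer, read-through transcripts are annotated for these genes. The median log2 difference between genotypes was 0.35 over the 15 genes with a near end, 0.22 over the 7 tested genes with a far end and 0.41 over the 15 with no element found. No match says only that these letters are not in the annotated transcript.

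Promoters are shown for 3 genes with unlike motif content, H1, H2B and H4. They are RefSeq sequences of GRCm38.p6, from 250 bases before the transcription start to 50 after it, 5′ to 3′ on the gene's strand. Capitals mark the matches of 3 motifs, none of which contains another, searched on both strands. They were the letters TATAAA, the core of a TATA box where they stand just before a start, the proximal element CCAAT, and the octamer ATTTGCAT. Hist1h1b lies at chr13:21780576-21780875 (minus strand), Hist1h2bb at chr13:23746484-23746783 (plus strand) and Hist1h4f at chr13:23551619-23551918 (minus strand). In Hist1h4f the TATAAA match is at the first base shown, the far end from the start.
Hist1h1b: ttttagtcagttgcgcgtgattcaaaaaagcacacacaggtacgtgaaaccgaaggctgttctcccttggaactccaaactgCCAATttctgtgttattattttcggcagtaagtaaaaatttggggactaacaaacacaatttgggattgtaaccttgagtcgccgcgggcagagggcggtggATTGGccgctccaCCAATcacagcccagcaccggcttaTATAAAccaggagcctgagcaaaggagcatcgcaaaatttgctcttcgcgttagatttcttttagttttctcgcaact
Hist1h2bb: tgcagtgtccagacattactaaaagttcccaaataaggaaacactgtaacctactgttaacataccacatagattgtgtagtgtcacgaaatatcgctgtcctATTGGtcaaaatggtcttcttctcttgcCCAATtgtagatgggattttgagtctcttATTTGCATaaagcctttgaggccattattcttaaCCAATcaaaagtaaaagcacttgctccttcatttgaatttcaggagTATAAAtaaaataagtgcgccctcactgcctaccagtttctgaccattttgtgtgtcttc
Hist1h4f: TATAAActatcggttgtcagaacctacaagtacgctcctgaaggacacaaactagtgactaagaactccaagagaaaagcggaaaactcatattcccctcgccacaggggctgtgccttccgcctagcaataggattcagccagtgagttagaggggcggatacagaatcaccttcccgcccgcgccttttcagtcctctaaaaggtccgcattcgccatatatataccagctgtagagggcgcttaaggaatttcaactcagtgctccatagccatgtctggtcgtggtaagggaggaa

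A RefSeq promoter was matched for 45 of the 49 genes. CCAAT, a common proximal promoter element, was found in 35 of 35 promoters of H1, H2A, H2B and H3 genes and in 3 of 10 of H4 genes, against 37.9% of all 27025 promoters. TATAAA was found in 28 of the 45 promoters, against 14.2% of all. The octamer, a binding site of the POU factor OCT1, was found in 6 of 13 H2A and 4 of 11 H2B promoters and in none of the 6 H1, 5 H3 and 10 H4 promoters, against 1.75% of all. These matches describe sequence and not binding.

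Depth differed between libraries. Steps between low FPKM values put between 7285873 reads (SS18-SSX2 tumor 2) and 17546219 reads (SS18-SSX1 tumor 3) behind the tumors. Reads of all histone genes together numbered 13613, 26009 and 42323 for SS18-SSX1 and 22822, 15987 and 45062 for SS18-SSX2. Here and below, values of a genotype are given in the order of tumors 1, 2 and 3. Tle1, the transducin-like corepressor used as a synovial sarcoma marker, had 23.3 to 37.0 FPKM in all tumors. Skeletal muscle fibre genes (22 listed, 19 tested, none at 0 in all tumors) had summed levels of 368 to 12863 FPKM in the SS18-SSX1 tumors and 131 to 5775 FPKM in the SS18-SSX2 tumors, with the highest value in tumor 2 of each genotype. Mast cell genes (8 of 8 tested, none at 0 in all tumors) summed to 61.8 to 2505 FPKM with SS18-SSX1, the highest in tumor 3, and to 10.9 to 61.3 FPKM with SS18-SSX2. Erythroid genes (6 listed, 5 tested, none at 0 in all tumors) summed to 18.1 to 735 FPKM and 73.3 to 573 FPKM, with the highest value in tumor 3 of each genotype. Lymphocyte genes (12 listed, 3 tested, none at 0 in all tumors) summed to 6.71 to 126 FPKM and 10.7 to 991 FPKM, and macrophage genes (10 of 10 tested, none at 0 in any tumor) to 50.3 to 389.6 FPKM and 148 to 636 FPKM, both highest in SS18-SSX2 tumor 2. Endothelial genes (6 of 6 tested, none at 0 in any tumor) summed to 11.6 to 72.4 FPKM and 18.8 to 88.2 FPKM, lowest in tumor 2 of each genotype. The Y-linked helicase gene Ddx3y had 28.2 to 35.2 FPKM in the SS18-SSX1 tumors and at most 0.0148 FPKM in the SS18-SSX2 tumors, so sex and genotype cannot be told apart. Whether each tumor had its own mouse is not stated in the labels, so a p-value reflects the spread among these samples and no more.

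Between the fusion forms, none of the 48 tested histone genes passed the test, although most had a higher mean log2 level in SS18-SSX2 tumors. The mean log2 level is a genotype's mean of log2(FPKM + 1), and every count of higher and lower genes goes by it, while means printed in FPKM are of FPKM. With limma on log2(FPKM + 1), SS18-SSX2 minus SS18-SSX1, the smallest adjusted p of a histone gene was 0.689 (Hist1h1b), where 0.0649% of all 13873 tested genes passed an adjusted p of 0.05 (0.0432% higher and 0.0216% lower in SS18-SSX2). The mean log2 level was higher in SS18-SSX2 for 40 histone genes and lower for 8, against 51.1% higher among all tested genes. By mean FPKM the counts were 38 and 10. The median difference was 0.37 on the log2(FPKM + 1) scale, against 0.01 over all tested genes. By class, the higher mean log2 level lay in SS18-SSX2 for 6 of 6 H1, 10 of 13 H2A, 12 of 13 H2B, 4 of 5 H3 and 8 of 11 H4 genes, with median differences of 0.70, 0.26, 0.41, 0.62 and 0.07. By mean FPKM it was 6 of the 11 H4 genes, and the other classes had the same counts. At an unadjusted p under 0.05 there were 5 genes, all higher in SS18-SSX2, which is 10.4% of 48 against 3.26% of all tested genes in that direction. None was lower, against 1.71%. These were Hist1h1b, Hist1h2af, Hist1h2bl, Hist3h2ba and Hist1h2bf, the last named after its values were seen. The SS18-SSX2 tumors all lay above the SS18-SSX1 tumors in 6 histone genes, against 4.97% of all tested genes, and the reverse held for 0, against 3.76%.

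Single tumors carried much of that difference. Leaving out SS18-SSX1 tumor 3 gave a median of 0.60, and leaving out SS18-SSX2 tumor 3 gave 0.23. The count at an unadjusted limma p under 0.05 was 12 without the former, 1 without the latter and 2 without SS18-SSX1 tumor 2. Over all 13873 tested genes the same counts were 872, 324 and 798, against 689 with all 6 tumors. Small p-values thus changed in number over the whole table as well. In a bulk tumor, fewer cycling cells and less histone RNA per cycling cell cannot be told apart.

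**Figure D1:**
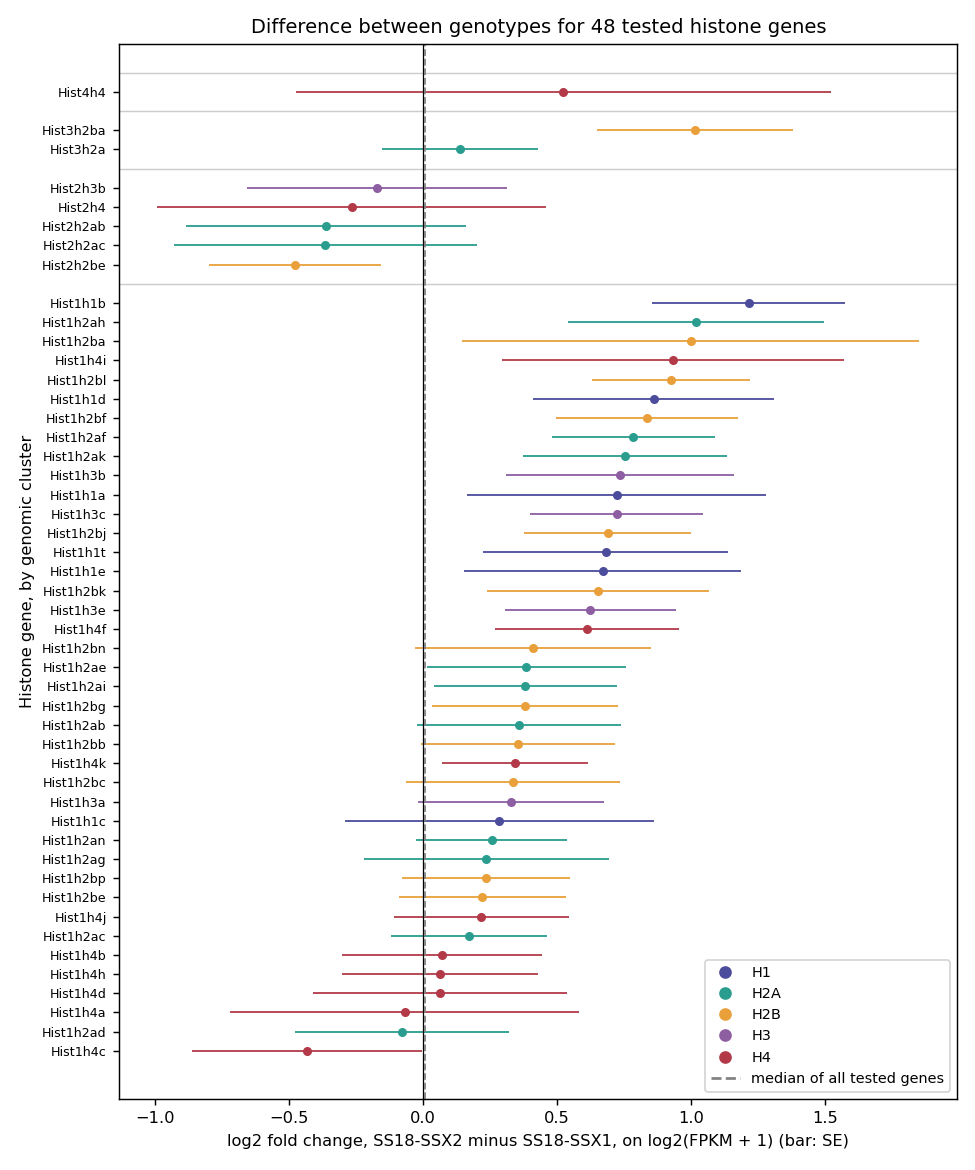
Log2 fold change (SS18-SSX2 minus SS18-SSX1, on log2(FPKM + 1)) of the 48 tested histone genes, in blocks by genomic cluster from Hist1 at the bottom to Hist4 at the top; points are estimates, bars are 1 SE and colors are classes. Of the 40 Hist1 genes 37 lie to the right of 0, and the 5 Hist2 genes lie to the left.

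The summed levels of every class overlapped between genotypes. The H1 genes summed to 405, 904 and 745 FPKM with SS18-SSX1 and to 713, 939 and 1657 FPKM with SS18-SSX2. The means were 685 ± 255 and 1103 ± 493 FPKM (SD, n = 3 each), a ratio of 1.61, and the groups overlapped. The log2 ratio of the H1 means was 0.69, and it was 0.27 without SS18-SSX2 tumor 3.

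H2A sums were 162, 169 and 264 FPKM with SS18-SSX1 and 166, 216 and 313 FPKM with SS18-SSX2, a ratio of means of 1.17. H2B sums were 208, 153 and 332 FPKM with SS18-SSX1 and 305, 297 and 339.7 FPKM with SS18-SSX2, a ratio of 1.36. In both classes the highest 2 tumors were tumor 3 of either genotype. H3 sums were 104, 117 and 210.1 FPKM with SS18-SSX1 and 202, 135 and 255 FPKM with SS18-SSX2, a ratio of 1.37. H4 sums were 489, 884 and 1210.5 FPKM with SS18-SSX1 and 665, 803 and 1116 FPKM with SS18-SSX2. Their means of 861 ± 361 and 861 ± 231 FPKM (SD, n = 3 each) were alike, while the single tumors differed 2.47-fold.

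**Figure D2:**
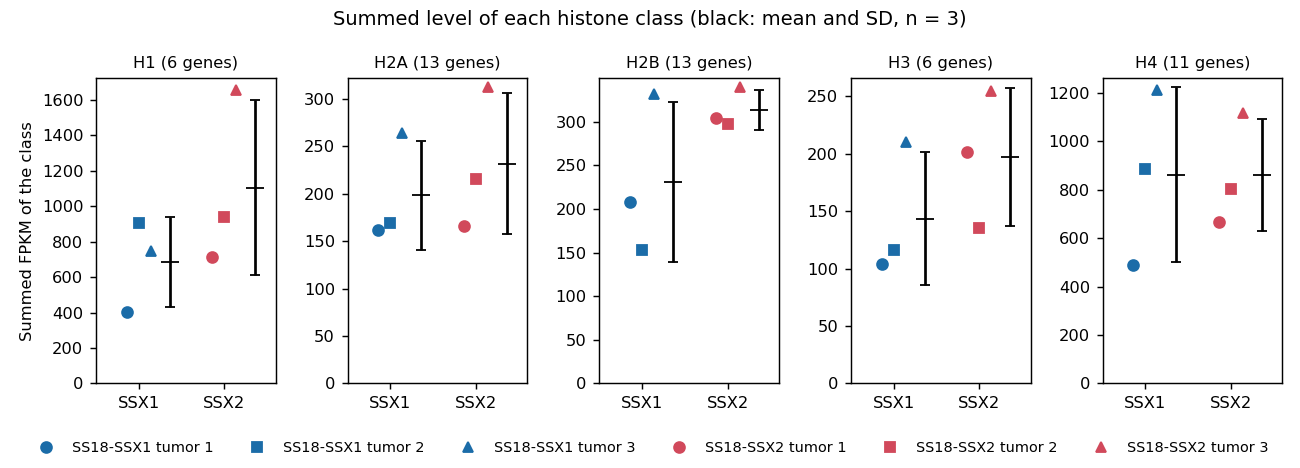
Summed FPKM of the H1, H2A, H2B, H3 and H4 genes in each of the 6 tumors, on linear axes that start at 0; symbols are tumors, and black bars give the mean and SD of the 3 tumors of a genotype. Tumor 3 of either genotype is the highest in H2A, H2B and H3, and the means of H4 coincide at 861 FPKM.

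All histone genes together took 0.496%, 0.550% and 0.722% of the summed FPKM with SS18-SSX1 and 0.790%, 0.541% and 1.15% with SS18-SSX2. SS18-SSX2 tumor 3 held the highest value of 27 of the 48 tested histone genes, and it was the highest tumor for 14.2% of all tested genes. SS18-SSX1 tumor 3 was highest for 14 histone genes, against 24.6% of all tested genes. The lowest value lay in SS18-SSX1 tumor 2 for 24 histone genes (19.5% of all tested genes) and in SS18-SSX1 tumor 1 for 16 (17.3%). Between the highest and the lowest tumor, histone genes differed 1.81-fold to 24.7-fold, with a median of 3.05-fold over the 47 genes with no value of 0. The parts of the muscle, mast cell, erythroid, lymphocyte, macrophage and endothelial RNA given above in these tumor differences were not tested.

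**Figure D3:**
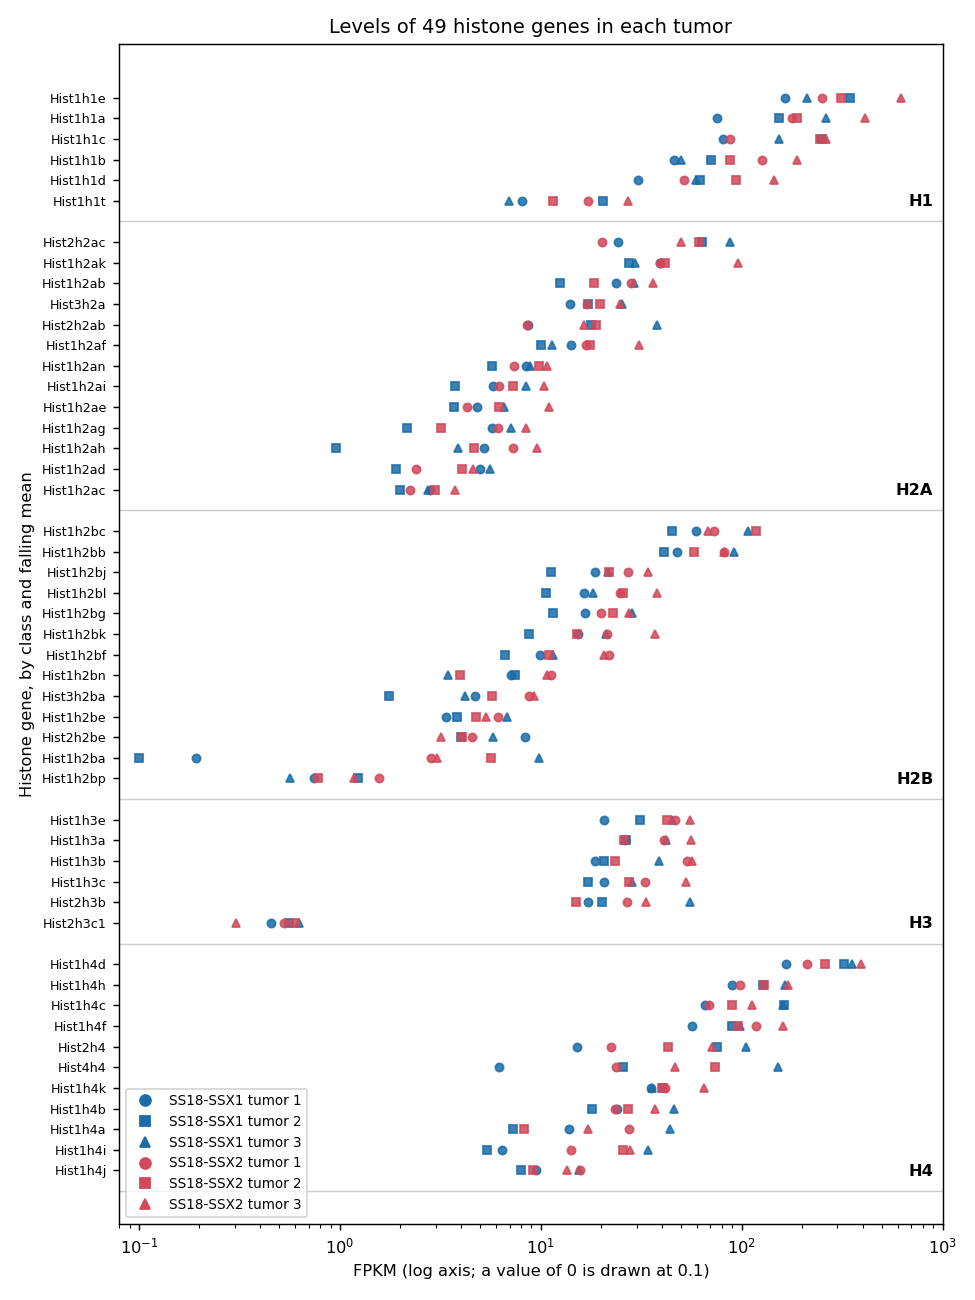
FPKM of each of the 49 histone genes in the 6 tumors, on a log axis, with genes ordered by class and falling mean; symbols are tumors, and a value of 0 is drawn at 0.1. Red triangles (SS18-SSX2 tumor 3) lie farthest right for 27 of the 48 tested genes.

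By FPKM, the linker histone genes had the highest level per gene of the classes. That order rests on the lengths the authors used and on how reads of near-identical copies were divided. For H1 the median share of short transcript stretches found in no other gene was 98.9%. In the other classes it ran from 33.1% (H3) to 71.1% (H4). The part of these factors in the order of classes was not tested. H1 binds the DNA between nucleosomes and compacts the fibre. Hist1h1e, with the highest mean of all 49 genes, had 164, 347 and 213 FPKM with SS18-SSX1 and 252, 313 and 623 FPKM with SS18-SSX2. Hist1h1a had 75.7, 154 and 262 FPKM with SS18-SSX1 and 178, 189 and 410.3 FPKM with SS18-SSX2. Both were highest in SS18-SSX2 tumor 3 and lowest in SS18-SSX1 tumor 1, and their groups overlapped. Hist1h1c, whose annotated transcript runs 840 bases past its stem-loop, had 81.1, 250.5 and 154 FPKM with SS18-SSX1 and 88.0, 245 and 263 FPKM with SS18-SSX2. Tumor 1 of each genotype was low, and the order of genotypes depended on which tumors entered, since its log2 difference of 0.29 became -0.14 without SS18-SSX1 tumor 1.

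Hist1h1b was the histone gene with the smallest p. The gene lies at chr13:21779883-21780625 on GRCm38 as a single exon, and no 50-base stretch of its transcript occurs in another annotated gene. It had 45.9, 70.2 and 50.01 FPKM with SS18-SSX1 and 127, 87.2 and 188 FPKM with SS18-SSX2. All SS18-SSX2 tumors were above all SS18-SSX1 tumors, with means of 55.4 ± 13.0 and 134 ± 51.0 FPKM (SD, n = 3 each). The log2 fold change was 1.22 (SE 0.36), and the limma adjusted p was 0.689. It took 11.3%, 7.76% and 6.71% of the summed H1 level with SS18-SSX1 and 17.8%, 9.28% and 11.4% with SS18-SSX2. Those shares overlapped. Hist1h1d had 30.5, 62.4 and 59.4 FPKM with SS18-SSX1 and 51.6, 93.3 and 145 FPKM with SS18-SSX2, with overlapping groups and a log2 fold change of 0.86 (SE 0.45, limma adjusted p = 0.997). Hist1h1t, the testis linker histone, named after its values were seen, had 6.96 to 20.4 FPKM with SS18-SSX1 and 11.5 to 27.3 FPKM with SS18-SSX2, from 76 to 356 reads per tumor.

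H2A and H2B form the dimers that flank the H3 and H4 tetramer in the nucleosome. Hist2h2ac, the H2A gene with the highest mean, had 24.1, 63.4 and 87.9 FPKM with SS18-SSX1 and 20.3, 61.2 and 49.96 FPKM with SS18-SSX2. Tumor 1 of each genotype was the lowest. Hist1h2ak had 39.4, 27.5 and 29.4 FPKM with SS18-SSX1 and 39.4, 41.7 and 96.0 FPKM with SS18-SSX2. Its groups did not overlap, but SS18-SSX1 tumor 1 and SS18-SSX2 tumor 1 had the same value to 3 digits. Hist1h2ab ranged from 12.5 to 29.1 FPKM with SS18-SSX1 and from 18.4 to 36.1 FPKM with SS18-SSX2, with overlap.

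Hist1h2af had 14.1, 10.01 and 11.4 FPKM with SS18-SSX1 and 16.9, 17.5 and 30.9 FPKM with SS18-SSX2. All SS18-SSX2 tumors were above all SS18-SSX1 tumors, with a log2 fold change of 0.79 (SE 0.30, limma adjusted p = 0.910). Only 6.00% of its 50-base stretches were absent from other genes, so its reads could belong in large part to other H2A copies. Hist1h2ah had 5.23, 0.957 and 3.86 FPKM with SS18-SSX1 and 7.26, 4.65 and 9.58 FPKM with SS18-SSX2, with overlap, from as few as 7 reads in SS18-SSX1 tumor 2.

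Among H2B genes, Hist1h2bc had 59.0, 45.0 and 108 FPKM with SS18-SSX1 and 73.0, 118 and 67.9 FPKM with SS18-SSX2. Hist1h2bb had 47.7, 41.2 and 91.7 FPKM with SS18-SSX1 and 81.3, 57.7 and 81.5 FPKM with SS18-SSX2. In both genes SS18-SSX1 tumor 2 was lowest, SS18-SSX1 tumor 3 was among the highest, and the groups overlapped. Hist1h2bl had 16.4, 10.7 and 18.2 FPKM with SS18-SSX1 and 24.9, 25.6 and 37.8 FPKM with SS18-SSX2, with no overlap. Its log2 fold change was 0.93 (SE 0.30, limma adjusted p = 0.790), and 17.2% of its 50-base stretches were unique.

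Hist3h2ba, an H2B gene of the small cluster on chromosome 11, had 4.71, 1.75 and 4.21 FPKM with SS18-SSX1 and 8.74, 5.74 and 9.29 FPKM with SS18-SSX2. There was no overlap between genotypes, from 15 to 83 reads per tumor, and the log2 fold change was 1.01 (SE 0.37, limma adjusted p = 0.844). In contrast to Hist1h2bl, 77.9% of its 50-base stretches were unique. Hist1h2bj had 18.7, 11.3 and 21.7 FPKM with SS18-SSX1 and 27.4, 21.9 and 34.3 FPKM with SS18-SSX2. The gap between its groups was 21.7 against 21.9 FPKM. Hist1h2bf had 9.94, 6.62 and 11.5 FPKM with SS18-SSX1 and 21.8, 11.0 and 20.5 FPKM with SS18-SSX2, and its groups overlapped.

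H3 and H4 form the core tetramer of the nucleosome. The tested Hist1 genes of H3 were lowest in SS18-SSX1 tumor 1 or 2 or, for Hist1h3a, in SS18-SSX2 tumor 2. Hist1h3e had 20.7, 31.2 and 44.8 FPKM with SS18-SSX1 and 46.6, 42.7 and 55.3 FPKM with SS18-SSX2. Hist1h3a had 26.3, 26.7 and 42.2 FPKM with SS18-SSX1 and 41.0, 25.96 and 56.0 FPKM with SS18-SSX2. Hist1h3b had 18.5, 20.7 and 38.7 FPKM with SS18-SSX1 and 53.7, 23.5 and 57.0 FPKM with SS18-SSX2. In all of them SS18-SSX2 tumor 3 was highest and the groups overlapped. Hist1h3c had 20.6, 17.3 and 28.5 FPKM with SS18-SSX1 and 33.0, 27.7 and 52.7 FPKM with SS18-SSX2, where 27.7 and 28.5 FPKM were the only values out of order. Its log2 fold change was 0.72 (SE 0.32, limma adjusted p = 0.997).

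Hist1h4d, the H4 gene with the highest mean, had 166, 323 and 354 FPKM with SS18-SSX1 and 211, 261 and 394 FPKM with SS18-SSX2. Hist1h4h had 89.9, 128 and 164 FPKM with SS18-SSX1 and 97.9, 129 and 171 FPKM with SS18-SSX2. Their log2 fold changes were both 0.06, with SEs of 0.47 and 0.37, and leaving out SS18-SSX1 tumor 1 or SS18-SSX2 tumor 3 made both negative. Hist1h4c went the other way, with 65.4, 163 and 161 FPKM with SS18-SSX1 and 68.6, 90.0 and 112 FPKM with SS18-SSX2, and its groups overlapped (log2 fold change -0.43, SE 0.43). Hist1h4f had 56.8, 89.7 and 98.5 FPKM with SS18-SSX1 and 118, 96.2 and 160.0 FPKM with SS18-SSX2. SS18-SSX2 tumor 2 lay just below the highest SS18-SSX1 value of that gene. Hist1h4i had 6.43, 5.41 and 34.2 FPKM with SS18-SSX1 and 14.1, 25.8 and 27.9 FPKM with SS18-SSX2, so that SS18-SSX1 tumor 3 stood above all other tumors.

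The genomic clusters differed in direction, and for the Hist2 cluster this depended on single tumors. In the large Hist1 cluster (chr13:21715763-23934851), 37 of 40 tested genes had the higher mean log2 level in SS18-SSX2 (36 by mean FPKM), with a median log2 difference of 0.38. In the Hist2 cluster (chr3:96219865-96270132), 0 of 5 tested genes had the higher mean log2 level in SS18-SSX2, with a median of -0.36. The Hist2 genes summed to 73.8, 181 and 292 FPKM with SS18-SSX1 and to 83.2, 143 and 175 FPKM with SS18-SSX2. Without SS18-SSX1 tumor 3, 4 of the 5 Hist2 genes were higher in SS18-SSX2 and the median was 0.15. Leaving out SS18-SSX2 tumor 1 instead gave 2 of 5 and a median of -0.04. The difference between clusters was not tested, because the genes of a cluster are not replicates of a condition.

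The Hist2 genes and Hist4h4 were singled out after their values were seen. Hist2h2ab had 8.63, 17.8 and 37.7 FPKM with SS18-SSX1 and 8.53, 18.9 and 16.5 FPKM with SS18-SSX2. Hist2h4 had 15.1, 75.2 and 105 FPKM with SS18-SSX1 and 22.4, 42.9 and 71.6 FPKM with SS18-SSX2. In both, as in Hist2h2ac, SS18-SSX1 tumor 3 was highest and tumor 1 of each genotype was lowest. Tumor 1 of both genotypes made up the lowest 2 tumors for 3 of the 5 tested Hist2 genes and 5 of the 40 Hist1 genes, against 11.7% of all tested genes. Hist2h3b had 17.2, 20.1 and 55.4 FPKM with SS18-SSX1 and 26.9, 14.9 and 33.3 FPKM with SS18-SSX2, and none of its 50-base stretches was unique. Hist2h2be, an H2B gene whose whole transcript was unique, had another order, with 8.32, 3.995 and 5.79 FPKM with SS18-SSX1 and 4.55, 4.04 and 3.19 FPKM with SS18-SSX2.

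Hist4h4, the lone histone gene on chromosome 6 (chr6:136801553-136804415), had the widest range among the 47 tested genes with no value of 0. It had 6.18, 25.6 and 153 FPKM with SS18-SSX1 and 23.6, 73.6 and 46.4 FPKM with SS18-SSX2, a 24.7-fold range from 237 to 7705 reads. Its annotation continues for 2445 bases past the stem-loop, and 91.5% of its 50-base stretches were unique. Hist1h2ba, the testis form of H2B, also named after its values were seen, had 1, 0 and 67 reads with SS18-SSX1 and 16, 16 and 17 reads with SS18-SSX2. SS18-SSX1 tumor 3 was thus highest for both genes. That tumor also had the highest mast cell marker level, a mean log2(FPKM + 1) of 7.04 over 8 genes against 1.05 to 3.22 elsewhere, and the part of those cells in the histone values was not tested.

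Back-to-back H2A and H2B genes did not share an FPKM level. The annotation holds 13 back-to-back histone pairs with start sites at most 1000 bases apart, and 9 of them, all H2A with H2B, had both genes measured, 176 to 302 bases apart. H2B exceeded H2A in all 6 tumors in 6 pairs, and H2A exceeded H2B in all 6 tumors in 3. The 3 were Hist1h2ak with Hist1h2bn, Hist1h2an with Hist1h2bp, and Hist2h2ac with Hist2h2be, named after their values were seen. For Hist1h2ak and Hist1h2bn the log2 ratio of H2B to H2A, on the log2(FPKM + 1) scale, was -2.32, -1.75 and -2.78 with SS18-SSX1 and -1.73, -3.11 and -3.04 with SS18-SSX2. For Hist1h2ah and Hist1h2bk, a pair with the octamer in both promoters, it was 1.39, 2.32 and 2.19 with SS18-SSX1 and 1.44, 1.52 and 1.85 with SS18-SSX2. The order within each pair was the same in every tumor, and in 8 of 9 pairs both genes had the same sign of genotype difference. Since 83.3% of all tested histone genes were higher in SS18-SSX2, most pairs of any histone genes would share a sign. The count therefore does not set these pairs apart. Of the 9 pairs, 2 had the octamer in both promoters and 5 in neither. The remaining pairs were Hist1h2ac with Hist1h2bc and Hist2h2ac with Hist2h2be. There the H2A promoter held the octamer, and no RefSeq promoter was matched for the H2B gene. Levels between genes rest on the lengths the authors used, which for some members differ from the annotation. They also rest on how reads of near-identical copies were divided, which could set the order within a pair alike in every tumor. The share of unique 50-base stretches ran from 7.87% (Hist1h2ah) to 100% (Hist2h2be) among the paired genes.

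The machinery that makes and processes histone messages showed no call. NPAT and its partner CASP8AP2 switch on histone genes at the histone locus body. Npat had 15.8, 7.498 and 11.2 FPKM with SS18-SSX1 and 12.5, 7.23 and 7.39 FPKM with SS18-SSX2. Casp8ap2 had 17.2, 7.45 and 11.4 FPKM with SS18-SSX1 and 14.95, 8.18 and 8.75 FPKM with SS18-SSX2. Both were highest in SS18-SSX1 tumor 1, the tumor with the lowest summed histone level. Of 13 tested genes of histone transcription, 8 had a higher and 5 a lower mean log2 level in SS18-SSX2, and 0 passed the test. The smallest p belonged to Ccne1, which encodes cyclin E (1.06 to 4.60 FPKM with SS18-SSX1, 3.15 to 4.997 FPKM with SS18-SSX2).

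Slbp, which encodes the stem-loop binding protein, had 14.6, 7.26 and 16.5 FPKM with SS18-SSX1 and 11.9, 9.08 and 13.0 FPKM with SS18-SSX2. The genes of the U7-specific subunits, Lsm11 and Lsm10, had 1.14 to 2.97 FPKM and 8.84 to 16.3 FPKM. Of 19 tested genes of 3′ processing, export and decay, 10 had a higher and 9 a lower mean log2 level in SS18-SSX2, with a median of 0.04. Within this list Cstf2t, a cleavage stimulation factor gene, had the smallest p, with 33.6, 35.9 and 28.4 FPKM with SS18-SSX1 and 26.9, 24.3 and 24.5 FPKM with SS18-SSX2. Its groups did not overlap, and its log2 fold change was -0.35 (SE 0.22, limma adjusted p = 0.997).

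Histone chaperones hand new histones to DNA. Asf1b had 4.14, 3.01 and 8.17 FPKM with SS18-SSX1 and 11.3, 3.52 and 8.61 FPKM with SS18-SSX2. Chaf1a and Chaf1b, subunits of the chromatin assembly factor CAF-1, had 7.72 to 20.7 FPKM and 2.77 to 7.38 FPKM over the 6 tumors. In all of these genes the lowest or second lowest value was that of SS18-SSX2 tumor 2, with overlapping groups. Of 19 tested chaperone genes, 12 had a higher and 7 a lower mean log2 level in SS18-SSX2 and 0 passed. Tonsl, whose protein binds newly made H4, had the smallest p (2.37 to 4.47 FPKM against 3.07 to 6.38 FPKM). Of 11 chaperone genes of replacement histones, 7 were higher and 4 lower and 0 passed, with the smallest p for Srcap, the remodeller that deposits H2A.Z (17.6 to 34.3 FPKM against 27.2 to 34.0 FPKM).

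The listed genes of replacement and variant histones had no common direction. Of 11 tested, 5 had a higher and 6 a lower mean log2 level in SS18-SSX2, with a median of -0.06 and 0 passing. H3f3b, which encodes H3.3, had 48.7, 79.1 and 115 FPKM with SS18-SSX1 and 74.7, 53.1 and 56.2 FPKM with SS18-SSX2. H3f3a, a second H3.3 gene, had 10.5, 11.2 and 20.0 FPKM with SS18-SSX1 and 11.1, 10.1 and 8.07 FPKM with SS18-SSX2. SS18-SSX1 tumor 3 was highest in both. H2afz (H2A.Z) had 1.47 to 7.67 FPKM, and H1f0, the linker histone of resting cells, had 87.6 to 119 FPKM with SS18-SSX1 and 94.0 to 108 FPKM with SS18-SSX2.

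H2afx, the H2A.X gene, had 28.4, 16.2 and 25.8 FPKM with SS18-SSX1 and 30.2, 36.2 and 50.1 FPKM with SS18-SSX2. Its groups did not overlap, with a log2 fold change of 0.71 (SE 0.31, limma adjusted p = 0.997). Cenpa, the centromeric H3 variant, had the smallest p of the list, with 4.05, 4.88 and 10.7 FPKM with SS18-SSX1 and 14.7, 9.38 and 17.3 FPKM with SS18-SSX2 (log2 fold change 1.04, SE 0.39, limma adjusted p = 0.889).

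The ratio of a replication-dependent class to its replacement histone does not depend on a tumor's scaling, and was computed after the values above were seen. Summed H3 over H3f3a plus H3f3b was 1.75, 1.29 and 1.56 with SS18-SSX1 and 2.35, 2.14 and 3.96 with SS18-SSX2. The means were 1.54 ± 0.233 and 2.82 ± 0.994 (SD, n = 3 each), and the groups did not overlap, a pattern that 8.72% of single tested genes showed in either direction. The ratio joins a numerator with a higher and a denominator with a lower mean FPKM in SS18-SSX2, and its groups were not tested. Unlike scaling, the division of reads between near-identical copies can enter the ratio, and its part was not tested. Unique stretches were worked out for the 49 histone genes and not for the replacement genes. Summed H1 over H1f0 was 4.63, 7.57 and 7.06 with SS18-SSX1 and 7.39, 9.99 and 15.4 with SS18-SSX2, where 7.39 lay below 7.57. Summed H2A over H2afz plus H2afv was 3.73, 2.21 and 3.11 with SS18-SSX1 and 3.03, 3.39 and 4.78 with SS18-SSX2, with overlap.

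The summed FPKM of all histone genes and the cell cycle lists had different orders of tumors, and the histone order changed with the scaling. The list of 42 DNA synthesis genes averaged 3.67, 3.20 and 3.85 on the log2(FPKM + 1) scale with SS18-SSX1 and 3.92, 3.24 and 3.92 with SS18-SSX2. Tumor 2 of each genotype was lowest, and these were the tumors rich in muscle RNA. The part of muscle RNA in these averages was not tested. Pcna, the replication clamp, had 17.9, 14.5 and 22.5 FPKM with SS18-SSX1 and 24.5, 13.4 and 23.9 FPKM with SS18-SSX2. Mcm2, of the replicative helicase, had 32.8, 23.9 and 68.6 FPKM with SS18-SSX1 and 39.2, 21.5 and 43.4 FPKM with SS18-SSX2. Of the 42 genes 29 had a higher and 13 a lower mean log2 level in SS18-SSX2, with a median of 0.14 and 0 passing. Dut, which clears dUTP, had the smallest p, with 9.70 to 15.1 FPKM against 16.2 to 17.4 FPKM and no overlap.

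In FPKM, the summed histone level was lowest in SS18-SSX1 tumor 1 and then in SS18-SSX2 tumor 1, the tumor with the highest mitosis average. These tumors also had the smallest FPKM totals over all genes, 275819 and 259460, against 319577 to 442195 elsewhere. As a share of that total, SS18-SSX2 tumor 1 was the second highest, at 0.790%. The lowest shares were those of SS18-SSX1 tumor 1 (0.496%), SS18-SSX2 tumor 2 (0.541%) and SS18-SSX1 tumor 2 (0.550%). The median of log2(FPKM + 1) over the 48 tested genes was 4.08, 4.19 and 4.92 with SS18-SSX1 and 4.58, 4.55 and 5.18 with SS18-SSX2. By that median SS18-SSX2 tumor 1 was the third highest. The 20 mitosis genes averaged 2.84, 2.31 and 3.15 with SS18-SSX1 and 4.42, 2.95 and 4.12 with SS18-SSX2. Their lowest tumors, rising from SS18-SSX1 tumor 2 to SS18-SSX1 tumor 1 and SS18-SSX2 tumor 2, were the lowest of the H2B sums in the same order. The H3 sums and the histone median had the same tumors lowest, with the SS18-SSX1 tumors exchanged. The H1, H2A and H4 sums in FPKM were lowest in tumor 1 of each genotype, which did not hold for shares of summed FPKM. The H1 share of SS18-SSX2 tumor 1 was the second highest, at 0.275%. The H2A share was lowest in tumor 2 of each genotype (0.0417% with SS18-SSX1 and 0.0488% with SS18-SSX2). The H4 share was lowest in SS18-SSX1 tumor 1 (0.177%) and SS18-SSX2 tumor 2 (0.182%). All 20 mitosis genes had a higher mean log2 level in SS18-SSX2, with a median of 1.04, against 51.1% and a median of 0.01 over all tested genes. Of the 20, 9 had an unadjusted limma p under 0.05, against 3.26% of all tested genes in that direction, and 0 passed after adjustment. Mki67, the Ki-67 proliferation marker, had 23.3, 8.15 and 15.9 FPKM with SS18-SSX1 and 78.9, 14.5 and 49.3 FPKM with SS18-SSX2, and Cdc20, needed to enter anaphase, had 11.5, 9.10 and 15.2 FPKM against 37.4, 19.2 and 45.6 FPKM. Set against the DNA synthesis average of the same tumor, the histone median was 0.41, 0.99 and 1.06 log2 units higher with SS18-SSX1 and 0.66, 1.31 and 1.26 with SS18-SSX2. These differences overlapped between genotypes, and their smallest values were those of tumor 1 of each genotype.

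**Figure D4:**
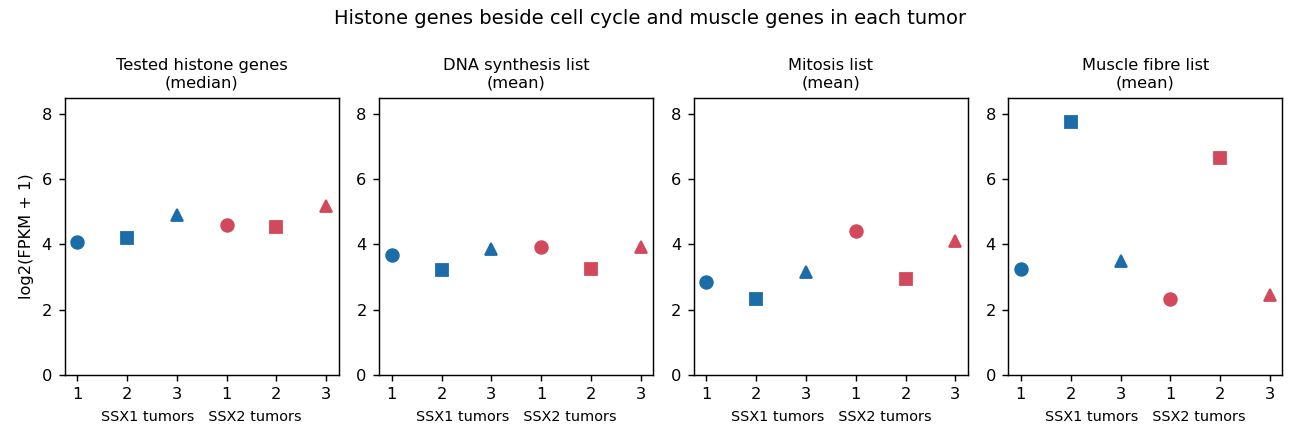
Median log2(FPKM + 1) of the 48 tested histone genes and mean log2(FPKM + 1) of the DNA synthesis, mitosis and muscle fibre lists in the 6 tumors (blue SS18-SSX1, red SS18-SSX2), on axes that start at 0. The mitosis mean is highest in SS18-SSX2 tumor 1 at 4.42, and the muscle mean stands at 7.77 and 6.64 in tumor 2 of the 2 genotypes.

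Near-identical copies limit what can be said of a single histone gene. Copies were compared by 50-base stretches of the annotated transcripts, a length set as an assumption because no source used here gives the read length. The median share of stretches found in no other gene was 98.9% for H1, 35.2% for H2A, 55.9% for H2B, 33.1% for H3 and 71.1% for H4. Only Hist1h1a, Hist1h1b, Hist1h1t and Hist2h2be were unique over their whole transcript. Most genes had the same direction on either side of 50%. Among the 28 genes with at least 50% unique stretches 24 had the higher mean log2 level in SS18-SSX2, with a median log2 difference of 0.35, and among the 20 tested genes under 50% it was 16, with a median of 0.40.

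**Figure D5:**
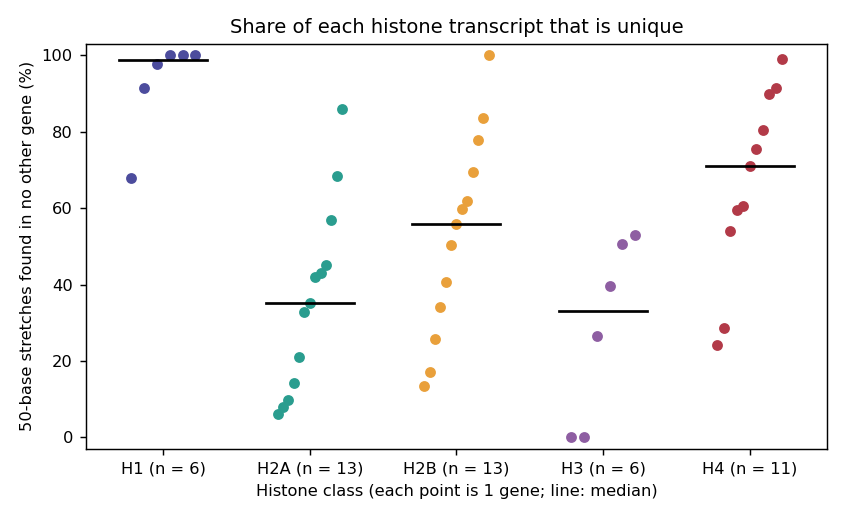
Percentage of 50-base stretches of each histone gene's transcripts that occur in no other annotated gene, by class; each point is 1 gene and each line is the class median. H1 lies highest with a median of 98.9%, and H3 lowest with 33.1%.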

How the data were processed

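Total RNA of 6 mouse leg tumors was extracted with RNeasy kits and made into Ribo-Zero libraries, per the labels' protocols. Novoalign 2.08.03 and mm10 are named in the submitters' processing notes. The authors deposited 1 table of FPKM values with 1 column per tumor. For the counting tool, the gene models, strand and reads with several matches, the methods were not given in the sources used here. Values of near-identical histone copies and of overlapping genes may depend on them. The table was matched to GENCODE M21 on GRCm38. A symbol was found for 17029 of 17312 genes. Columns were matched to tumors by the sample's own description.

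The whole table was fitted in R 4.3.3 by limma 3.58.1, using lmFit and a trended eBayes step, on log2(FPKM + 1). The contrast was SS18-SSX2 minus SS18-SSX1. Tests were two-sided, and p-values were adjusted by Benjamini-Hochberg over the 13873 genes that reached 1 FPKM in 3 or more tumors, with a threshold of 0.05. The pseudocount of 1 understates the fold change of low genes. Means and SDs are of FPKM, and counts of higher and lower genes go by the mean of log2(FPKM + 1). Reads were worked out from the steps of FPKM between single-exon genes, where 77.9% to 79.3% of low values came out whole within 0.02 reads. For 23 histone genes the annotated length gave whole reads, and for 26 the smallest other whole length was used, which may be wrong by a factor. These lengths ran from 312 to 4374 bases, and recovered reads served only to give depth. Tables were made with pandas 2.3.3 and numpy 2.4.6 under Python 3.11.15, figures with matplotlib 3.10.9, and the fit was tested on simulated data. There it called 14 of 250 2-fold changes (5.6%) and 179 of 250 4-fold changes (71.6%). A lack of calls therefore says little about differences near 2-fold.

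Members, gene lists and tests were chosen with earlier results of these data known. Histone genes were named by the 3 highest means and the 2 smallest p of each class. Fixed genes of the histone and cell cycle machinery and the smallest p of each list of that machinery were added. For cell type lists, list levels are given, and only Igkc and Hba-a1 are named as the smallest p of theirs. The alternatives were other pseudocounts, filters, scalings and variance models, a block on the tumor number and leaving out tumors.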

Additional observations from a re-analysis of the deposited data

How the results depend on the processing

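Under the 16 other settings tried, 0 histone genes passed the limma adjusted p of 0.05, with smallest adjusted p-values from 0.284 (without SS18-SSX1 tumor 3) to 1 (without SS18-SSX2 tumor 3). Between 35 and 46 histone genes had the higher mean log2 level in SS18-SSX2. Over all genes, between 3 (without SS18-SSX2 tumor 3) and 20 (without tumor 2 of both genotypes) passed, where the fit of the report had 9, and rescaling to TPM put 58.6% of all genes higher in SS18-SSX2 in place of 51.1%, with 41 histone genes higher. The log2 ratio of summed H2A ran from -0.05 to 0.49 and that of H4 from -0.28 to 0.33 when 1 tumor was left out. With the tumor number as a replicate block, 0 histone genes passed (smallest limma adjusted p = 0.618) and 4 genes of the whole table passed. At an unadjusted limma p under 0.05 there were 10 histone genes and 827 of all 13873 tested genes, against 5 and 689 without the block. Tumors of one number share deviations in 2 of 3 pairs only (correlations across genes of 0.38, 0.31 and -0.28 for tumors 1, 2 and 3), so they were not taken as pairs. When 1 tumor was left out, the log2 fold change changed sign for several named genes. It ran from -0.14 to 0.79 for Hist1h1c, from -0.89 to 0.10 for Hist2h2ac, from -0.28 to 0.27 for Hist1h4d and from -0.16 to 0.26 for Hist1h4h. It ran from -0.86 to 0.15 for Hist2h2ab, from -0.48 to 0.34 for Hist2h3b, from -1.09 to 0.27 for Hist2h4 and from -0.53 to 1.68 for Hist4h4. It ran from -0.43 to 0.11 for Slbp, from -0.42 to 0.14 for Casp8ap2, from -0.14 to 0.31 for Lsm11, from -0.011 to 0.65 for Chaf1a, from -0.18 to 0.045 for H1f0, from -0.011 to 0.40 for Pcna, from -0.50 to 0.24 for Mcm2, from -0.63 to 3.34 for the plasma cell marker Igkc and from -0.13 to 1.72 for the erythroid marker Hba-a1. Without tumor 2 of both genotypes it was -0.18 for Hist1h2bc and 0.083 for H1f0. H1f0 was also positive after quantile normalization (0.042) and rescaling to TPM (0.015). The cause of these sign changes was not tested. Depth limits low genes, such as Hist1h2ba with 0 to 67 reads per tumor.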

Other observations

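A pair of processed pseudogenes carry histone symbols without being members, and both are named after their values were seen. Hist1h2al, which lies on chromosome 13 outside the Hist1 cluster, had 0.199, 0.192 and 18.1 FPKM with SS18-SSX1 and 2.55, 26.9 and 15.1 FPKM with SS18-SSX2. Hist3h2bb-ps, within the Hist3 cluster on chromosome 11, had 2.26, 3.12 and 5.15 FPKM with SS18-SSX1 and 0.888, 0.590 and 1.35 FPKM with SS18-SSX2. All SS18-SSX1 tumors were above all SS18-SSX2 tumors, the opposite of its neighbour Hist3h2ba, with a log2 fold change of -1.18 (SE 0.35, limma adjusted p = 0.676).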
